A study of Mus musculus with 4 samples.

Results

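Transcripts of the extracellular metalloproteinases and their tissue inhibitors were compared in alveolar macrophages (AMs) from tumor-free mice and from mice bearing 4T1 tumors. The members were all protein-coding genes whose symbol begins with Adam, Adamts, Mmp or Timp followed by a digit, with Mmp8 and Mmp9 set aside, which gave 76 of the 54532 genes in the count table, among 22046 protein-coding genes. They comprised 33 ADAM genes, 19 ADAMTS genes, 20 matrix metalloproteinase (MMP) genes and 4 TIMP genes. RNA-seq had been done on AMs purified from the lungs of female mice, all labelled wild-type. The Control group held 2 libraries from mice that received no tumor cells, and the 2 libraries of the Tumor group came from mice that had carried 4T1 cells, a mammary carcinoma line with spread to the lung, for 2 weeks. The methods of the study give wild-type mice as BALB/c in background and aged 8 to 10 weeks, and place the 4T1 cells in the mammary fat pad. The sources used here do not state how many mice made up a library, or whether the libraries of a group came from separate mice, so p-values measure the spread between these libraries, which may be technical. A legend of the study gives n = 2 for each group of this RNA-seq, without saying what n counts.

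ADAMs are membrane-anchored proteins, and the catalytically active ones cut the outer parts of other membrane proteins, such as cytokines and adhesion receptors, free from the cell surface. ADAMTS proteins are secreted and trim proteoglycans, procollagens and other matrix proteins, whereas MMPs, secreted or held at the membrane, cut collagens, elastin, laminins and many soluble proteins. TIMPs bind the active site of these enzymes and block it, and in the lung the balance of the families is best known from matrix turnover and emphysema, in which the macrophage elastase MMP12 is a classical enzyme.

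Between 16167147 and 19205737 reads were counted per library, and members held 0.189% to 0.192% of the counts in Control and 0.218% to 0.219% in Tumor. A floor of 3 counts, the limit that a count of 0 allows, corresponded to 0.153 to 0.190 CPM (counts per 1000000 library counts, scaled by the TMM method of edgeR), and covers counting error only. All 14 AM identity genes were detected in every library, from 5.45 CPM for Fabp4 in a Tumor library to 5233 CPM for Chil3 in a Control library, with summed levels of 18033 and 18110 CPM in Control and 11991 and 12137 CPM in Tumor. Summed markers of granulocytes were far higher in Tumor than in Control, and their values are given beside the members they moved with. Since AM identity genes took a smaller share of the Tumor libraries, the edgeR fit was repeated with libraries scaled on those 14 genes (AM scaling), which shifted the median log2 fold change over all genes by 0.54. In these bulk samples, fewer cells of a type and less RNA per cell cannot be told apart.

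Of the 76 members, 27 had enough counts to be tested and 17 of these (63%) passed an adjusted p of 0.05 in edgeR's quasi-likelihood test, 9 higher and 8 lower in Tumor. Over all 14256 genes tested, 53.8% passed, 29.0% higher and 24.8% lower, so the share of members that passed was of the same order as that of genes in general. The changes of the members were uneven in size: 10 of the 27 passed with a change of at least 2-fold, 7 higher and 3 lower, against 15.9% of all tested genes, 12.9% higher and 3.01% lower. The median log2 fold change was -0.05 over the tested members and 0.02 over all tested genes. CPM of the groups did not overlap for 23 of the 27 members, and for 75.1% of all tested genes. Under AM scaling 17 members passed higher and 5 lower, and the split over all genes moved from 53.9% higher among those called to 94.4%.

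**Figure D1:**
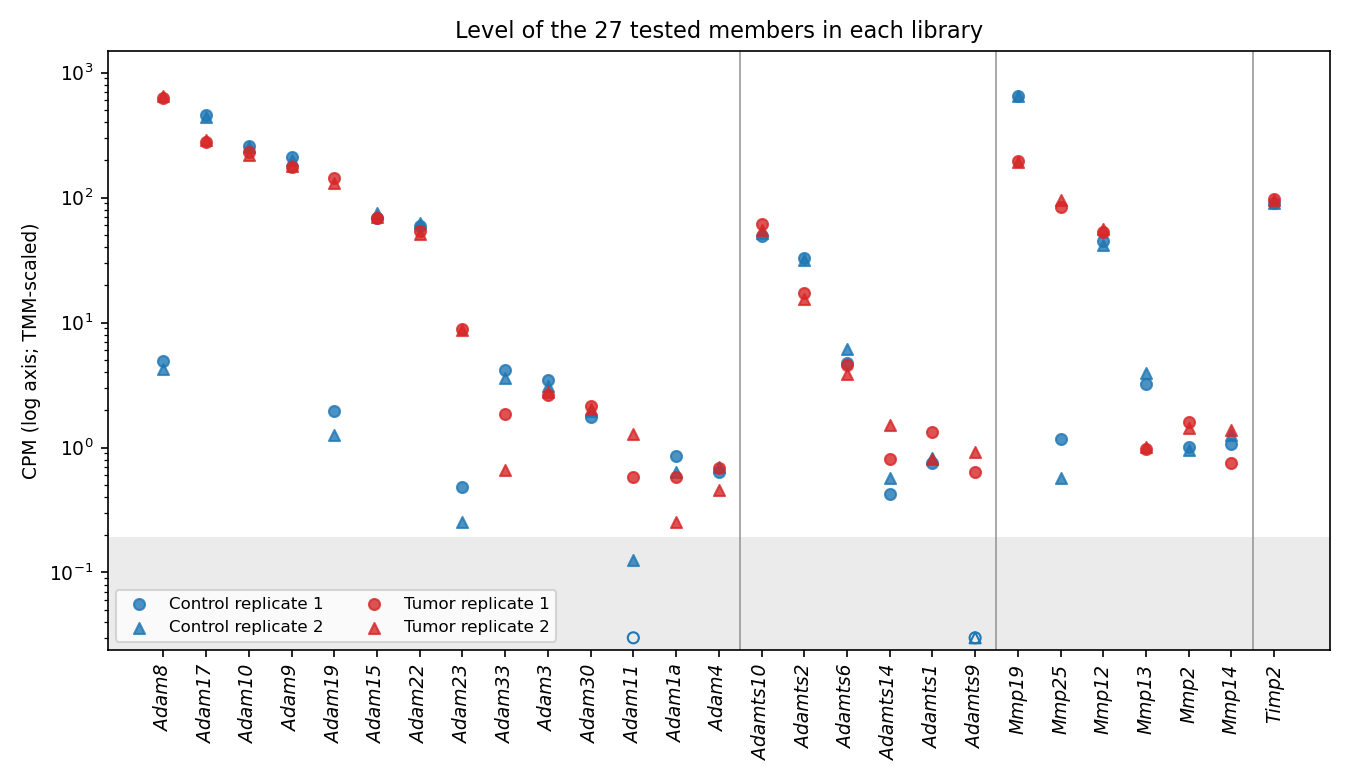
Level of each of the 27 tested members (CPM, TMM-scaled, log axis) in the 2 Control and 2 Tumor libraries, ordered by family; the gray band marks levels at or under the floor of 3 counts and open symbols mark a count of 0. Adam8, Adam19, Mmp25 and Adam23 lie far higher in both Tumor libraries, and Mmp19 lies lower.

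The leading transcript differed between the groups. Levels of different genes were compared as CPM per kilobase of the gene length given in the count table. In Control, Mmp19 led with 184 ± 0.909 CPM per kilobase (SD, n = 2), followed by Adam17 at 63.3 ± 1.37, Adam10 at 52.2 ± 0.555 and Adam9 at 49.7 ± 1.91. The library values of Adam10 and Adam9 lay close without overlapping, and Adam8 stood at rank 13 with 0.986 ± 0.101 CPM per kilobase. In Tumor, Adam8 led with 138.9 ± 3.23 CPM per kilobase, ahead of Mmp19 at 55.2 ± 0.560, Adam10 at 45.8 ± 1.85, Adam9 at 43.3 ± 0.555 and Adam17 at 39.8 ± 0.606. Adam19 rose from rank 20 to rank 7 and Mmp25 from rank 23 to rank 8, with 19.3 ± 1.15 and 17.1 ± 1.54 CPM per kilobase in Tumor, again close without overlap.

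Summed over all 76 members and with TMM scaling, the level per length was close in both groups, at 418.6 and 412.5 CPM per kilobase in Control and 424.6 and 426.6 in Tumor, whereas under AM scaling the means were 344.5 and 513.4, a ratio of 1.49. Its make-up differed between the groups. The share of that sum held by MMPs was 46.1% and 46.4% in Control and 19.1% and 19.4% in Tumor, and that of ADAMs was 44.9% and 44.4% against 71.6% and 71.7%. These shares do not depend on how libraries are scaled. Mmp19 alone held 44.1% and 44.4% of the Control sums and 13.1% and 12.8% of the Tumor sums, whereas Adam8 held 0.252% and 0.222% in Control and 32.2% and 33.1% in Tumor. The share of TIMPs lay between 5.77% and 5.91% in all 4 libraries. As ratios of Tumor to Control, the sums were 1.64 for ADAMs, 0.426 for MMPs, 0.997 for ADAMTS genes and 1.04 for TIMPs, and 2.39, 0.620, 1.45 and 1.51 under AM scaling.

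**Figure D2:**
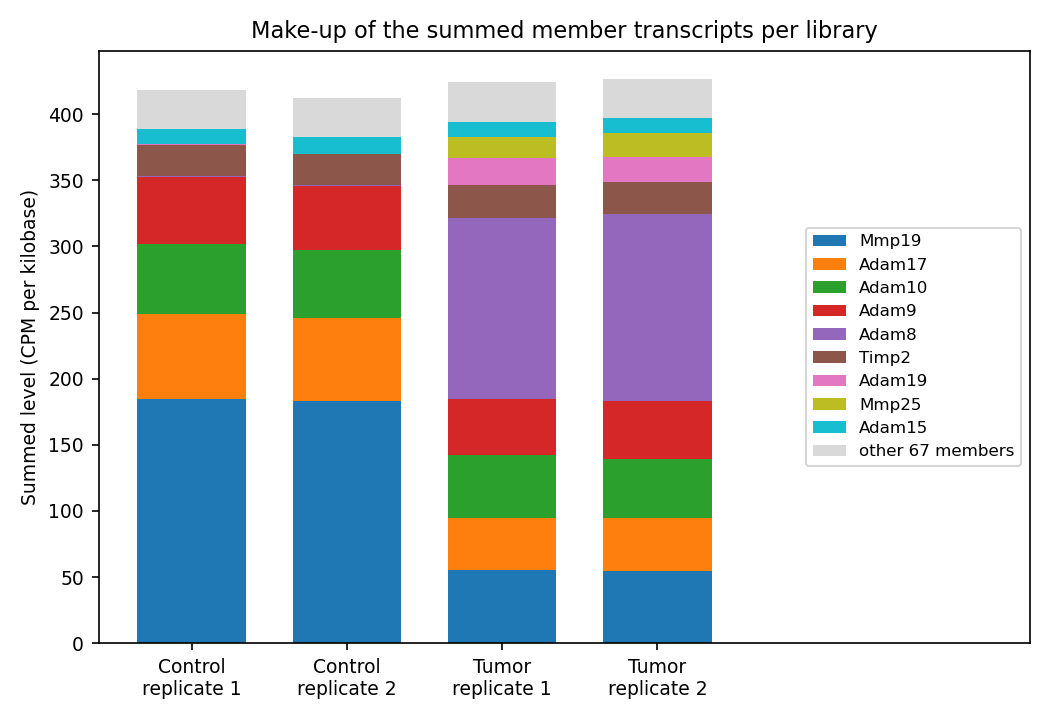
Summed level of the 76 members per library (CPM per kilobase, bars from 0), divided into 9 named members and the other 67. The bars are of similar height, between 412.5 and 426.6, and Adam8 takes up in Tumor much of the space that Mmp19 and Adam17 hold in Control.

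Among ADAMs with a protease site that are best known outside the reproductive tract, 9 genes in all, 7 were tested, 2 passed higher and 4 passed lower. Adam8 encodes a membrane sheddase of leukocytes, and lies at chr7:139978932-139992562 on the minus strand (GRCm38, as are all coordinates here). Counts were 92 and 67 in Control and 10986 and 12864 in Tumor. This corresponds to 4.57 ± 0.468 CPM in Control and 644.2 ± 15.0 CPM in Tumor, a log2 fold change of 7.13 ± 0.0536 (SE, adjusted p = 3.24e-35), or 139.9-fold. Adam19, a sheddase of neuregulins also known as meltrin beta, lies at chr11:46055992-46147343 on the plus strand. It had 37 and 20 counts in Control and 2481 and 2584 in Tumor, with a log2 fold change of 6.37 ± 0.107 (adjusted p = 4.12e-27). For both genes the lower Tumor library stood far above the higher Control library.

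The widely expressed sheddases moved the other way and by less. Adam17, the TNF-alpha converting enzyme, had 8625 and 7043 counts in Control and 4880 and 5650 in Tumor. Its level fell from 452.6 ± 9.80 to 284.5 ± 4.34 CPM, a log2 fold change of -0.67 ± 0.0280 (adjusted p = 8.04e-18), and under AM scaling the fall was smaller, at -0.13. Adam10, the alpha-secretase that sheds Notch receptors, had 4854, 4026, 4013 and 4295 counts in Control replicates 1 and 2 and Tumor replicates 1 and 2, with 256.7 ± 2.73 CPM in Control and 225.0 ± 9.07 CPM in Tumor. Adam9, a broadly expressed relative, had 3939, 3141, 3062 and 3533 counts in the same order, with 204.3 ± 7.85 and 178.2 ± 2.29 CPM. The groups did not overlap for either gene, and the log2 fold changes were -0.19 ± 0.0331 for Adam10 (adjusted p = 1.73e-05) and -0.20 ± 0.0356 for Adam9 (adjusted p = 2.90e-05), but these turned to 0.35 and 0.34 under AM scaling.

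Adam33, an ADAM known from airway smooth muscle and fibroblasts, was scarce, with 78 and 57 counts in Control and 32 and 13 in Tumor. It fell by a log2 fold change of -1.66 ± 0.322 (adjusted p = 7.67e-05), and this value ranged with the Tumor libraries, from -2.55 without Tumor replicate 1 to -1.08 without Tumor replicate 2. Adam15, a membrane metalloproteinase of many cell types, had 1290, 1184, 1192 and 1376 counts, and its groups overlapped at 71.8 ± 4.38 and 69.4 ± 0.913 CPM (log2 fold change -0.05 ± 0.0558, adjusted p = 0.506). Under AM scaling it passed higher, at 0.49. The remaining genes of this group, Adam12 and Adam28, a metalloproteinase of lymphocytes, had too few counts to be tested, with no more than 6 in any library. On the transcript, Iah1 on the other strand shares 311 exon bases with Adam17, and 4731419I09Rik shares 1263 with Adam15. Whether counting used strand is not given in the sources used here, so reads of such partners cannot be told apart.

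All 3 ADAMs that lack a working protease site and are known as adhesion molecules or receptors of neurons passed the test. Adam23 lies at chr1:63445891-63596276 on the plus strand and had 9 and 4 counts in Control and 153 and 172 in Tumor. It was higher by a log2 fold change of 4.52 ± 0.292 (adjusted p = 1.46e-13), with 8.79 ± 0.0490 CPM in Tumor. Adam11 had 0 and 2 counts in Control, under the floor, and 10 and 25 in Tumor, a ratio of 16.4 with a 95% counting interval from 4.20 to 140.4 (adjusted p = 0.000388). Both Control counts lay in replicate 2, and the fitted log2 fold change of 3.86 became 2.82 without Control replicate 1, 7.13 without Control replicate 2, where the Control count is 0, and 3.16 without Tumor replicate 2. Adam22, the neuronal receptor of LGI1, was the most abundant of the 3, at 61.1 ± 2.71 CPM in Control and 52.9 ± 2.29 CPM in Tumor. Its counts were 1111 and 996 in Control and 945 and 1007 in Tumor, and its log2 fold change was -0.21 ± 0.0623 (adjusted p = 0.00603), but 0.33 under AM scaling. Without Control replicate 2 the adjusted p of Adam22 was 0.0885.

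The 21 ADAM genes best known from testis and epididymis gave little signal; some of them, such as Adam30, also carry a protease site. Of these, 12 had no count in any library and 4 were tested, none of which passed with TMM scaling. Adam3, Adam30, Adam4 and Adam1a, the last of them a fertilin subunit, had log2 fold changes of -0.27, 0.17, -0.22 and -0.87, with adjusted p between 0.204 and 0.752. Under AM scaling Adam30 passed higher, at 0.71 (adjusted p = 0.0328). Adam1a shares 1805 exon bases with Mapkapk5 on the same strand, so its 5 to 16 counts per library are uncertain.

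**Figure D3:**
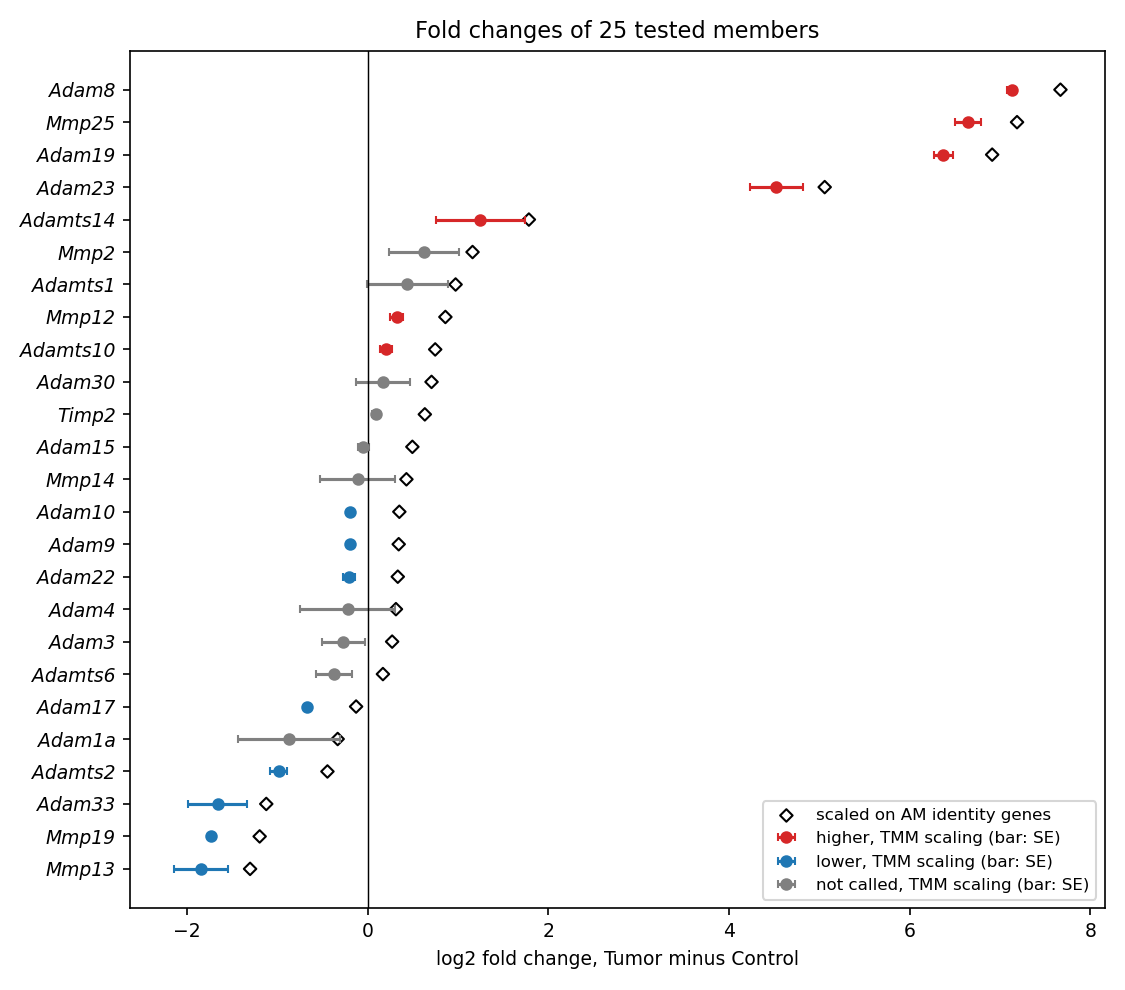
Log2 fold change of Tumor over Control for the 25 tested members whose Control counts exceed the floor (filled points, TMM scaling, bars give the SE) and under AM scaling (open diamonds); Adam11 and Adamts9, with Control counts at or under the floor, are not drawn. Adam8, Mmp25, Adam19 and Adam23 lie above 4 on both scales, while Adam9, Adam10 and Adam22 lie on opposite sides of 0 on the 2 scales.

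Among the secreted MMPs, 13 genes in all, 4 were tested, 1 passed higher and 2 passed lower. Mmp19, which cuts basement membrane proteins and other matrix components, lies at chr10:128790910-128800824 on the plus strand. It had 12240 and 10234 counts in Control and 3404 and 3802 in Tumor, so both Tumor libraries lay far under both Control libraries. Its level fell from 649.9 ± 3.21 to 194.9 ± 1.98 CPM, a log2 fold change of -1.74 ± 0.0271 (adjusted p = 8.76e-28) and of -1.20 under AM scaling. Tmem198b, on the opposite strand, shares 789 of the 3533 exon bases of Mmp19 and had between 210 and 306 counts.

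Mmp12 and Mmp13 lie in the MMP gene cluster of chromosome 9 and moved in opposite directions. Mmp12, the macrophage elastase, at chr9:7344381-7369499, had 852 and 663 counts in Control and 922 and 1098 in Tumor, and 43.7 ± 2.43 against 54.5 ± 1.92 CPM. It was higher by a log2 fold change of 0.32 ± 0.0672 (adjusted p = 0.00021). Mmp13, a collagenase, at chr9:7272514-7283331, had 61 and 63 counts in Control and 17 and 20 in Tumor, and fell by a log2 fold change of -1.84 ± 0.299 (adjusted p = 6.87e-06). Mmp2, the gelatinase A of stromal cells, had 19 and 15 counts in Control and 28 in each Tumor library, and did not pass (log2 fold change 0.62, adjusted p = 0.178), but passed higher under AM scaling, at 1.16 (adjusted p = 0.00748). Mmp27, in the same cluster, was not tested and had 0 and 1 counts in Control and 19 and 8 in Tumor, a ratio of 25.2 with a 95% counting interval from 4.16 to 1033.

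Of the 7 membrane-bound MMPs, 2 were tested. Mmp25, a protease held at the surface by a lipid (GPI) anchor and also called leukolysin, lies at chr17:23628311-23645277 on the minus strand. It had 22 and 9 counts in Control and 1470 and 1892 in Tumor, with 0.871 ± 0.426 CPM against 90.5 ± 8.15 CPM. Its log2 fold change was 6.65 ± 0.144 (adjusted p = 1.55e-24), and 7.30 when Control replicate 1 was left out, since the small Control counts differ between the libraries. Mmp14, the main activator of pro-MMP2, had 20 counts in each Control library and 13 and 27 in Tumor, and its groups overlapped (log2 fold change -0.11, adjusted p = 0.849). Mmp17, the other GPI-anchored member, was not tested, with 3 and 1 counts in Control and 15 and 7 in Tumor, a ratio of 5.14 with a counting interval from 1.75 to 20.5.

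The ADAMTS genes were mostly scarce, and 6 of 19 were tested, of which 3 passed higher and 1 lower. Adamts2, a procollagen N-proteinase that trims fibrillar procollagens, had 623 and 501 counts in Control and 302 and 303 in Tumor. It fell from 32.4 ± 1.05 to 16.4 ± 1.41 CPM, a log2 fold change of -0.99 ± 0.0944 (adjusted p = 6.45e-10) and of -0.45 under AM scaling. Its relative Adamts14 had 8 and 9 counts in Control and 14 and 30 in Tumor, and passed higher (log2 fold change 1.25 ± 0.494, adjusted p = 0.0349). That call was lost in several other fits, with a log2 fold change of 0.70 and an adjusted p of 0.412 without Tumor replicate 2. Adamts10, linked to fibrillin microfibrils, was the most abundant ADAMTS, with 922 and 826 counts in Control and 1067 and 1089 in Tumor and 50.7 ± 2.22 against 58.5 ± 4.32 CPM. Its log2 fold change was 0.21 ± 0.0661 (adjusted p = 0.00995), and the adjusted p was 0.123 without Control replicate 1 and 0.114 without Tumor replicate 1.

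The versican-cleaving Adamts9 had no count in either Control library and 11 and 18 in Tumor, which makes it at least 3.34-fold higher (floor of 3 counts per library; adjusted p = 6.72e-05). Adamts1, of the same proteoglycanase group, had 14 and 13 counts in Control and 23 and 16 in Tumor, and Adamts6 had 89 and 98 against 79 and 76. Neither passed, with log2 fold changes of 0.44 (adjusted p = 0.436) and -0.37 (adjusted p = 0.126). Under AM scaling Adamts1 passed higher, at 0.97 (adjusted p = 0.0493), and the log2 fold change of Adamts6 was 0.17. The aggrecanases Adamts4 and Adamts5 had no more than 10 counts in any library and were not tested.

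The inhibitors moved little where they were abundant. Timp2 had 1706 and 1431 counts in Control and 1682 and 1892 in Tumor, or 90.7 ± 0.242 and 96.7 ± 0.498 CPM. The groups did not overlap, but the difference did not pass (log2 fold change 0.09 ± 0.0460, adjusted p = 0.0981). It passed higher with total counts as library sizes, at 0.16 (adjusted p = 0.00502), under AM scaling, at 0.63, and when genes needed 10 counts in every library, at 0.12 (adjusted p = 0.0325). Timp1, the inhibitor that many tissues induce in inflammation, had 14 and 7 counts in Control and 2 and 0 in Tumor. It was under the filter on low counts, and its ratio was 0.0890 with a counting interval from 0.0101 to 0.364. Timp3, which is bound to the matrix and also blocks ADAM17, had 6 to 11 counts in every library, and it shares 1733 exon bases with Syn3 on the opposite strand. Timp4 had a single count in all.

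The other 49 members did not reach the test. No count at all was found for 21 of them, and 28 had some counts, none above 19 in a library. Mmp28, an epithelial MMP also called epilysin, had no count in Control and 9 and 8 in Tumor, at least 2.14-fold higher, and Adamts7, known from cartilage and the vessel wall, had 1 count in each Control library and 7 and 10 in Tumor, a ratio of 7.95 with a counting interval from 1.89 to 70.9. Each overlaps an exon of a gene on the opposite strand, 1700020L24Rik by 466 bases and Tbc1d2b by 122, and those partners had counts of 5 and 6 in Control against 30 and 23 in Tumor, and of 645 and 544 against 1105 and 1297. When every gene with a count was tested, 5 of the untested members passed, with Mmp27, Mmp28, Mmp17 and Adamts7 higher and Timp1 lower, at adjusted p between 0.000194 and 0.0444.

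Marker genes of other cells moved with the members that were higher in Tumor. All 14 neutrophil markers passed higher, with summed levels of 54.3 and 54.4 CPM in Control and 4167 and 4134 CPM in Tumor, and Elane, the neutrophil elastase, had no count in Control. Of the Control sums, 38.0 and 38.1 CPM came from Mmp8. That list holds both MMPs set aside here, the neutrophil collagenase Mmp8 (log2 fold change 0.92) and the gelatinase B Mmp9 (4.37). All 5 eosinophil markers also passed higher, from 0.480 and 0.506 to 2221 and 2201 CPM, with Prg3 at 0 in Control, and so did all 6 basophil and mast cell markers, from 2.29 and 2.02 to 522.4 and 528.6 CPM, of which Hdc held 467.2 and 478.5 CPM in Tumor, with Mcpt8, Ms4a2 and Fcer1a at 0 in Control. Of 10 hepatocyte markers 9 passed higher and 1, the transferrin gene Trf, passed lower. Trf held most of the Control sums of 146.7 and 148.7 CPM (Tumor 990.6 and 973.5), and without it, a choice made after its values were seen, the list went from 4.8 and 5.7 to 857.7 and 849.9 CPM, with Alb, Ahsg, Ttr, Serpina1a and Fgb at 0 in Control. ADAM8 and MMP25 are known as proteases of granulocytes, and Adam8, Adam19, Mmp25 and Adam23 moved in the same direction as these lists, whose part in the result was not tested. The sequencing methods state no gate. The study describes AMs isolated for both staining and RNA-seq, and gives the stained cells as CD45+ CD11b- CD11c+ SiglecF+. Whether the sequenced cells passed the same gate is not stated in the sources used here.

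Markers of other cells of the lung moved by less. The fibroblast list, of which 4 of 5 tested genes passed higher, summed to 4.05 and 3.54 CPM in Control and 8.30 and 9.87 CPM in Tumor, with Lum at 0 in Control. The endothelial list, with 2 of 5 passing higher, summed to 6.02 and 4.999 against 26.01 and 21.7 CPM, of which Pecam1, a gene that leukocytes also express, held 2.24 and 2.02 against 20.1 and 17.5 CPM, and Cdh5, Kdr and Egfl7 did not pass. The dendritic cell list, with 5 of 8 higher and 1 lower, summed to 14.8 and 14.5 against 56.2 and 53.7 CPM. The alveolar type 2 and club cell list, with 5 of 7 lower, summed to 302.0 and 304.4 against 219.2 and 225.3 CPM, and the list of monocytes and interstitial macrophages, with 2 of 7 higher and 4 lower, to 34.7 in both Control libraries against 28.7 and 31.3 CPM. Under AM scaling the splits were 3 higher and 2 lower for alveolar type 2 and club cells, 2 and 3 for monocytes and interstitial macrophages, 7 and 1 for dendritic cells, and 4 higher and none lower for each of the fibroblast and endothelial lists. All 14 AM identity genes passed lower with TMM scaling. AM scaling is set on these same genes, so their split under it, 7 higher and 6 lower, follows from its construction. Mmp19, Adam17, Adamts2, Adam33 and Mmp13 moved in the same direction as the AM identity list, and they stayed lower under AM scaling. With TMM scaling the log2 fold changes of the identity genes themselves ranged from -0.16 for Siglecf to -2.13 for Fabp4. Those of the named members lay inside this range. AM scaling treats the identity genes, taken as a set, as unchanged, which was not tested.

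**Figure D4:**
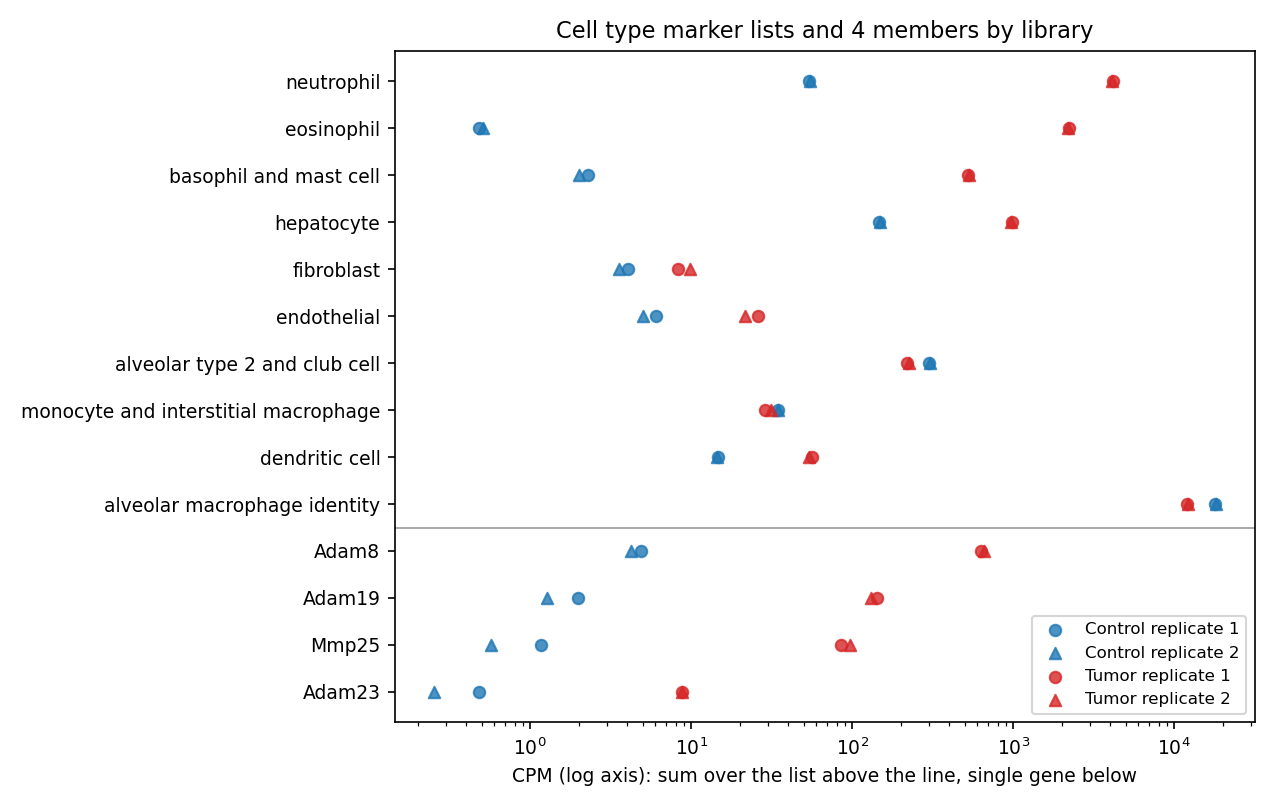
Summed CPM of each cell type marker list (above the line) and CPM of 4 members (below it) in the 4 libraries, on a log axis. The hepatocyte sums include Trf. The granulocyte lists and Adam8, Adam19, Mmp25 and Adam23 lie at least 10 times higher in Tumor, and the AM identity list lies lower in Tumor and is the most abundant list throughout.

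Sequences upstream of 4 members that changed strongly are shown because the study concerns AHR, a transcription factor that binds a short core motif, and because AP-1 factors are classical regulators of MMP promoters. Each is the 250 bases before the transcription start, on the gene's own strand and in GRCm38.p6, taken from RefSeq. Of 3 promoters listed for Adam19, the one nearest to the gene start in the count table is shown, and the other genes have 1 each. Capitals mark the AHR core (GCGTG, either strand) and the AP-1 motif (TGANTCA, which reads the same pattern on both strands). The regions are chr7:139992563-139992812 for Adam8, chr17:23645270-23645519 for Mmp25, chr11:46055734-46055983 for Adam19 and chr9:7272264-7272513 for Mmp13. The first pair are on the minus strand and the others on the plus strand.
Adam8: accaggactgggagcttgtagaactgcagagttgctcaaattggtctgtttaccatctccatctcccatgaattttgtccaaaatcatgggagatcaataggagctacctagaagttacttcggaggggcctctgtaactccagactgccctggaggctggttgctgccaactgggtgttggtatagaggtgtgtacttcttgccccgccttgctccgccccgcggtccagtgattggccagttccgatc
Mmp25: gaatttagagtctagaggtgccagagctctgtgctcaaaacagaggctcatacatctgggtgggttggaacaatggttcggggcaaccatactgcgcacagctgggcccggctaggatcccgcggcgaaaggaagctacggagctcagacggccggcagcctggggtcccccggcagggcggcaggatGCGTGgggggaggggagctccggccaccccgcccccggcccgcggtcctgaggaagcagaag
Adam19: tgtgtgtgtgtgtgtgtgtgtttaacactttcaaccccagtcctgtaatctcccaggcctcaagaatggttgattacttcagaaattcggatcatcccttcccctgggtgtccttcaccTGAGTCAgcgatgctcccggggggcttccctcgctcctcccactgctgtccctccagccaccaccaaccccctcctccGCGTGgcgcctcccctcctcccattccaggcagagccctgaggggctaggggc
Mmp13: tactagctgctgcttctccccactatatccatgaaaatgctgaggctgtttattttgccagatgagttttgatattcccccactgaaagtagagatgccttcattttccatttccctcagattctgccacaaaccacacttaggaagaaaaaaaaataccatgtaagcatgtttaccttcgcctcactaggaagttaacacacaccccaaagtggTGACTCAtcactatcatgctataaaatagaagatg

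The Adam8 sequence held neither motif, that of Mmp25 held 1 AHR core, the one shown for Adam19 held 1 AHR core and 1 AP-1 motif, and that of Mmp13 held 1 AP-1 motif. A promoter was listed for 17 of the 27 tested members, and 12 of these genes had an AHR core, including both higher and lower ones such as Adam23 and Adam17. By promoter the share was 60% of 20, against 28.2% of all 32851 promoters and 43.2% of the 12867 promoters of tested genes. The AP-1 motif lay before Adam19, Mmp12 and Mmp13, in 15% of the member promoters against 6.75% of all and 4.74% of those of tested genes. The STAT5 motif (TTCNNNGAA) was in none of the 20 member promoters, in 7.02% of all and in 6.02% of those of tested genes. A match describes the letters of the window and is not a binding site.

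Genes that act with or on the metalloproteinases were taken from 6 lists with 90 genes in all, of which 66 were tested, 31 passed higher and 22 lower. That is 80.3% of those tested, against 53.8% of all genes. In the trafficking and activation of ADAMs, 6 of 9 tested genes passed higher and 2 lower (7 and 2 under AM scaling), with a median log2 fold change of 0.16. With TMM scaling the largest changes were in Tspan33, a tetraspanin that escorts ADAM10, and in the iRhom genes, whose proteins carry ADAM17 to the surface. Tspan33 was scarce, with 3 and 6 counts in Control and 20 and 30 in Tumor (log2 fold change 2.33 ± 0.543, adjusted p = 0.00062). Rhbdf1 fell by a log2 fold change of -0.80 ± 0.118 (adjusted p = 1.50e-06). Rhbdf2, the iRhom of macrophages, fell by -0.68 ± 0.0453 (adjusted p = 3.13e-13). Both moved in the same direction as Adam17. Under AM scaling these falls were smaller, at -0.26 for Rhbdf1 and -0.14 for Rhbdf2, beside -0.13 for Adam17.

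Of 25 tested substrates of ADAM10 and ADAM17 in macrophages, 7 passed higher and 14 lower, with a median log2 fold change of -0.44, but 12 passed higher and 11 lower under AM scaling. The decoy receptor Il1r2 had 14 and 24 counts in Control and 4191 and 4745 in Tumor (log2 fold change 7.77 ± 0.0939, adjusted p = 1.99e-30). Vcam1, an adhesion molecule, rose by 3.33 ± 0.154 on the log2 scale (adjusted p = 8.48e-17). Il1r2 is also known from neutrophils, whose markers moved in the same direction. Tnf, the substrate for which ADAM17 was named, was chosen for mention after its values were seen. It had 37825 and 32351 counts in Control and 7485 and 8410 in Tumor, and fell by a log2 fold change of -2.24 ± 0.0205 (adjusted p = 2.40e-33).

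The remaining lists held more genes that passed higher than lower. Of other inhibitors and activators, 3 of 4 tested passed higher and none lower, among them Reck, a membrane-anchored inhibitor of MMPs, with 1 count in each Control library and 75 and 121 in Tumor (ratio 91.6, counting interval 25.02 to 761.7). The protease inhibitor Pzp (log2 fold change 4.51) and the matrix proteoglycan Spock2 (1.81) were the others. Spock2 had 6 and 11 counts in Control and 46 and 18 in Tumor. Of 8 tested genes of the plasminogen system, which activates several MMPs, 4 passed higher and 2 lower (6 and 2 under AM scaling). Plg, made by the liver, was at least 57.1-fold higher, in the direction of the hepatocyte markers, and Serpinb2, the inhibitor PAI-2, had a log2 fold change of 7.17. Serpine2 had 0 and 2 counts in Control and 33 and 21 in Tumor (ratio 25.2, counting interval 6.66 to 213.7).

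A further list held other metzincin proteases together with ADAMTS-like proteins, which lack a protease domain. Of its 6 tested genes 3 passed higher and 1 lower (4 and none under AM scaling). The largest change was in Adamdec1, a secreted ADAM relative of macrophages and dendritic cells (log2 fold change 5.21). Papln, of the ADAMTS-like genes, had 1 and 2 counts in Control and 26 and 25 in Tumor. Its ratio was 15.9 with a counting interval from 5.14 to 79.6. Bmp1, a procollagen C-proteinase, followed with a log2 fold change of 1.76, from 3 and 4 counts in Control and 11 and 15 in Tumor. Among 14 tested matrix substrates, 8 passed higher and 3 lower (12 and 2 under AM scaling), led by the laminin chain Lama5 (6.11), thrombospondin 1, Thbs1 (5.07), and the collagen chain Col1a1 (3.05). The last is also a fibroblast marker, and had 5 and 3 counts in Control and 31 and 42 in Tumor.

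**Figure D5:**
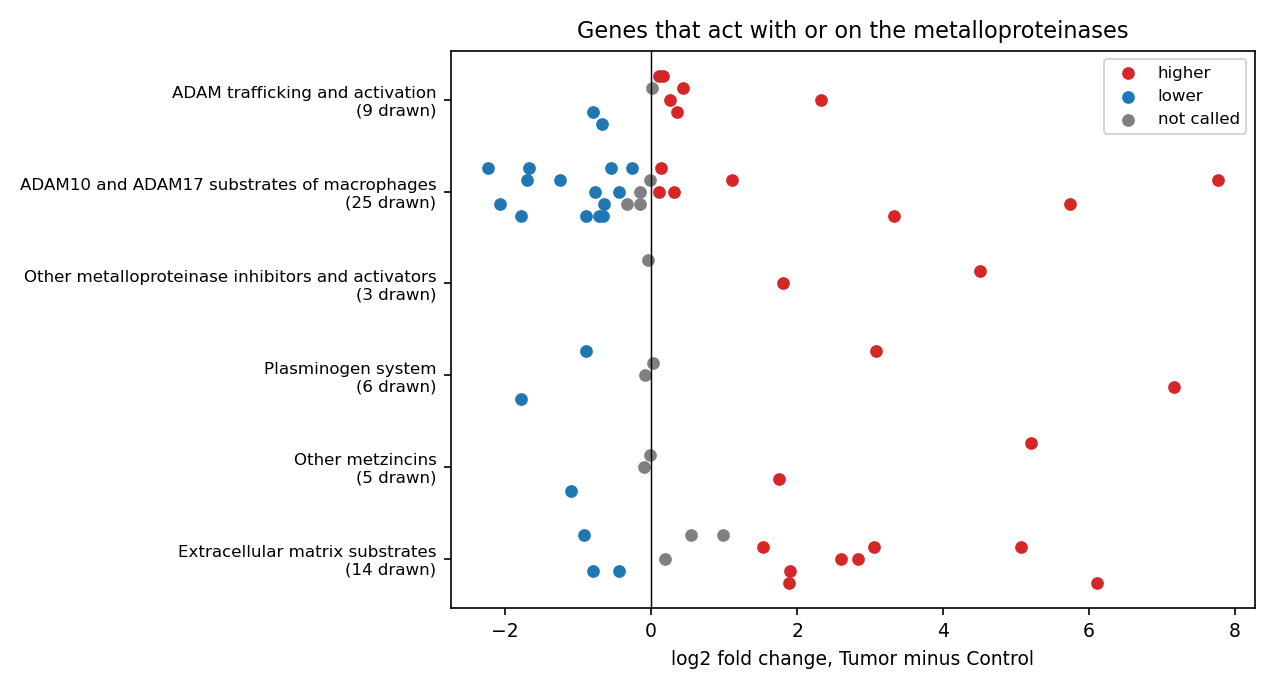
Log2 fold change of Tumor over Control (TMM scaling) for the tested genes of the 6 lists whose Control counts exceed the floor, 1 point per gene, colored by call. Substrates of ADAM10 and ADAM17 lie mostly under 0, with Tnf lowest at -2.24 and Il1r2 highest at 7.77, and matrix substrates lie mostly above 0.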

How the data were processed

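AMs were purified by the authors, followed by TRIzol extraction of RNA and library preparation with the NEBNext Ultra kit. Per the study's methods and the submitters' processing notes, paired-end reads were aligned with HISAT2 2.0.5 and counted per gene with featureCounts; the notes also name DESeq2. The deposited values used here are raw read counts per gene as made by the authors, not normalized. The FPKM values that the study describes were not used here. Build, annotation and strand of counting are not given in the sources used here; all 76 member identifiers matched GENCODE release M 21 (GRCm38), 98.7% with identical coordinates.

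Libraries were grouped from their titles. Counts were fitted with edgeR 4.0.16 (R 4.3.3; TMM, filterByExpr with a minimum count of 10, quasi-likelihood test, Benjamini-Hochberg over all 14256 tested genes, threshold 0.05), after the script was checked on simulated data. With 2 libraries per group, the fit has 2 residual degrees of freedom. Ratios of counts carry exact 95% intervals. Alternatives were other scalings, filters and call rules, DESeq2 1.42.0, limma-voom 3.58.1, a replicate block and leaving out each library. AM scaling used the median ratio over the 14 AM identity genes. Members that changed at least 2-fold or reached 10 CPM were given in full, and the 3 largest changes of each related list were named, except for results withheld, which are not reported here. Members and lists were chosen with earlier results of these data known.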

Additional observations from a re-analysis of the deposited data

How the results depend on the processing

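With 17 members called (9 higher, 8 lower) among 7671 genes and 53 related genes, the counts moved with the scaling, the filter on low counts and the call rule. AM scaling gave 17 members higher and 5 lower, and it turned the log2 fold changes of Adam3 (0.27), Adam4 (0.31), Adam9 (0.34), Adam10 (0.35), Adam15 (0.49), Adam22 (0.33), Adamts6 (0.17) and Mmp14 (0.43) positive; Adam15, Adam30, Adamts1, Mmp2 and Timp2 gained a call. Total counts as library sizes turned Adam15 to 0.0192 and gave Adam22 an adjusted p of 0.0570. Requiring 10 counts in every library called 13 members, 5 of them higher, and 36 related genes; Timp2 was gained, 12 of the 17 were called again, and the other 5 (Adam11, Adam23, Adamts9, Adamts14 and Mmp25) were not tested, since a Control library had fewer than 10 counts. A change of at least 2-fold left 10 members, 3 of them lower, 2268 genes and 31 related genes. No filter on low counts gave 22 members. DESeq2 called 15 members and limma-voom 16, and both lost Adamts14 (adjusted p = 0.182 and 0.0504), as DESeq2 did Adamts10 (0.0698). Leaving out each library in turn gave 15 to 16 members, 7 to 8 higher and 7 to 8 lower, 6502 to 7387 genes and 49 to 54 related genes. Over these fits, which assume that a lone library varies like the other group, the log2 fold change ran from -0.11 to 0.00904 for Adam15, from -0.62 to 0.24 for Mmp14 and from -0.53 to 0.0553 for Adam4. It ran from 2.82 to 7.13 for Adam11, the latter without Control replicate 2, which held its only Control counts. Same-numbered libraries did not deviate together (correlation -0.00278 across genes), and nothing in the labels ties the numbers to a shared source; the replicate block gave 16 members (8 higher, 8 lower), 7446 genes and 53 related genes, and Adamts14 lost its call (adjusted p = 0.0568). The cause of these differences was not tested. Members with fewer than about 10 counts per library are limited by depth.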
